A study of Mus musculus with 20 samples.

Results

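Transcripts of 9 genes of the oligodendrocyte lineage and of myelin were followed in somata and growth cones of mouse subcerebral projection neurons. The genes were Olig1, Olig2, Sox10, Pdgfra, Mbp, Cnp, Mag, Mog and Ermn. They were taken by name from 55487 genes in the deposited count table. Subcerebral projection neurons are cortical neurons whose axons leave the cortex for brainstem and spinal cord, and a growth cone is the motile tip of a growing axon. All mice were at postnatal day 1. The 4 groups of 5 libraries were wild-type (WT) somata from cortex, Bcl11b KO somata from cortex, WT growth cones from brainstem and spinal cord, and Bcl11b KO growth cones from brainstem and spinal cord. Bcl11b encodes a zinc finger transcription factor of these neurons, and the series' design text calls the mutants null. Growth cones and somata differed in the tissue of origin, in the experiment numbers and in library input (somata 1.8 to 3.1 ng of RNA, growth cones 0.19 to 3.1 ng), per the labels' protocols. These differences cannot be told apart from the compartment. No label says whether libraries of a group came from separate animals, so p-values measure the spread between libraries, which may be technical.

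Oligodendrocytes are the glial cells that wrap axons of the central nervous system in myelin. They arise from precursor cells that express the transcription factors Olig1, Olig2 and Sox10 and the growth factor receptor Pdgfra, and that divide and migrate before they differentiate. Differentiating cells then make the enzyme Cnp and the structural protein Mbp, whose mRNA is itself carried into cell processes, and later the surface proteins Mag and Mog. Ermn encodes ermin, an actin-binding cytoskeletal protein related to the ERM proteins (ezrin, radixin and moesin) that is known from late differentiating oligodendrocytes. In rodents, brainstem and spinal cord myelinate earlier than cortex. Mbp also has the longer golli transcripts, which neurons can express, and counts per gene do not tell them from the classic ones.

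Libraries held 18962308 to 51205154 counts, and levels are given as CPM, the counts of a gene per 1000000 counts of its library. The limit used here for detection, 3 counts, corresponded to 0.0586 to 0.158 CPM. The targeted gene was examined first. Bcl11b stood at 561, 780, 711, 731 and 494 CPM in WT somata 12, 14, 22, 25 and 26. In KO somata 14, 15, 22, 25 and 26 it stood at 1151, 1065, 1048, 1023 and 1125 CPM. Its counts were therefore higher, not lower, in the somata labelled KO, with a log2 difference of 0.71 ± 0.12 (SE, edgeR adjusted p = 0.0153), and this call was lost in 2 of 18 alternative fits. In growth cones its level was 76.4 to 131 CPM in WT and 67.1 to 144 CPM in those labelled KO. For somata this direction is opposite to the label, and for growth cones the gene gave no separation. Counts per gene do not show which exons were read, so the mutant groups are called labelled KO, after their labels, throughout. Summed over 10 genes, pan-neuronal markers took 10545 to 13260 CPM in somata and 6640 to 8744 CPM in growth cones, so that neuronal transcripts were abundant in every library.

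Growth cone libraries held far more transcript of most of these genes than soma libraries, and Ermn went the other way. In WT, 9 of the 9 genes passed the filter on low counts. Of these, Olig1, Olig2, Sox10, Mbp, Cnp and Mag were higher in growth cones, Ermn was lower, and Pdgfra and Mog did not pass the test. In this comparison 42.8% of all 15128 genes tested were called, 23.1% of those tested as higher and 19.7% as lower. In libraries labelled KO, 8 genes passed the filter, of which 5 (Olig1, Olig2, Sox10, Mbp and Cnp) were higher in growth cones and Ermn was lower. There 38.6% of 15410 genes tested were called, 21.6% as higher and 17% as lower. Single libraries of the compartments did not overlap for 6 genes in WT and for 6 in those labelled KO, where 37% and 35.7% of all genes tested did not overlap. The median log2 difference over the genes tested was 3.32 in WT and 2.43 in those labelled KO, beside 0.07 and 0.11 over all genes tested. These medians do not cover the same genes, since Mag was tested in WT only. Sox10 and, in WT, Mag passed the filter only through growth cones, with 1 soma library per group above 3 counts. Upper quartile scaling moved the medians over all genes tested to 0.28 and 0.31, and limma-voom moved them to -0.17 and -0.19. Differences within such a shift therefore carry no direction. In bulk libraries such as these, a difference in how many cells of a type contributed cannot be told apart from a difference in RNA per cell.

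**Figure D1:**
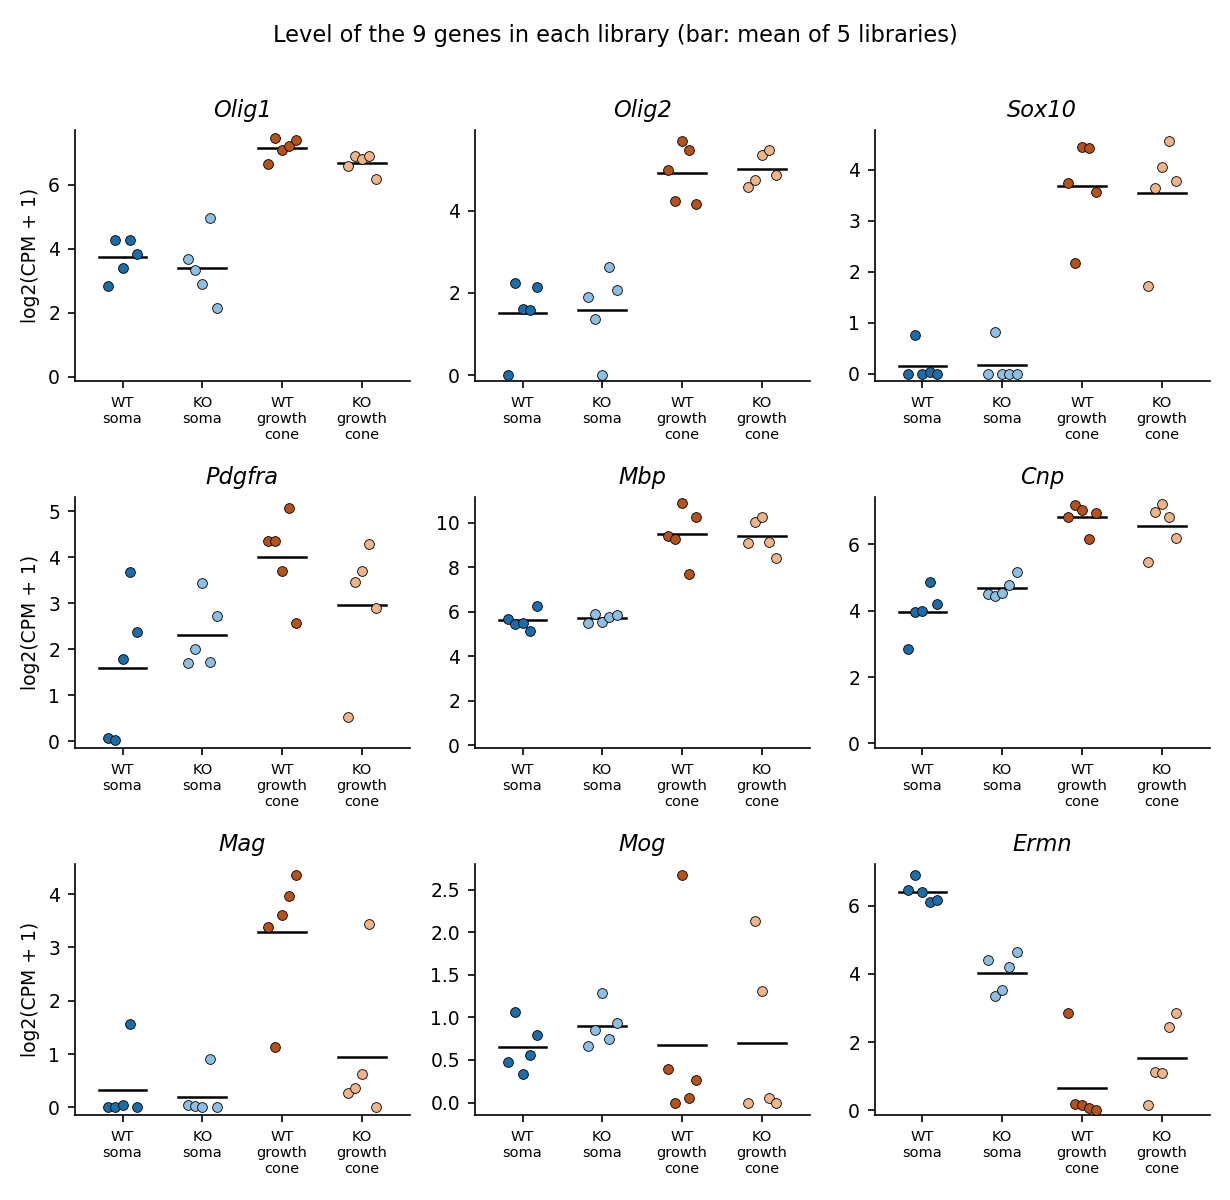
Level of each gene on a log2(CPM + 1) axis in the 20 libraries, in 4 groups of 5 (KO: labelled KO); each point is a library and the bar is the mean of the 5 log2 values. Growth cone points lie above soma points for Olig1, Olig2, Sox10, Mbp and Cnp, and below them for Ermn.

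Of the lineage transcription factors, Olig1 (chr16:91269772-91271933, plus strand, GRCm38) and Olig2 (chr16:91225457-91228677, plus strand) are basic helix-loop-helix genes that lie 41094 bases apart, and Olig2 sets up the lineage. Olig1 stood at 6.19, 18.5, 9.59, 18.1 and 13.3 CPM in WT somata 12, 14, 22, 25 and 26, and at 99.6, 175, 135, 147 and 168 CPM in WT growth cones 7 to 11. In libraries labelled KO it stood at 11.8, 9.06, 6.37, 30.3 and 3.40 CPM in somata 14, 15, 22, 25 and 26, and at 95.8, 118, 110, 119 and 71.2 CPM in growth cones 7 to 11. The lowest growth cone library was thus above the highest soma library in both genotypes. The log2 difference was 3.32 ± 0.32 (SE), or 10.01-fold, in WT (edgeR adjusted p = 8.6e-06) and 2.98 ± 0.50, or 7.91-fold, in those labelled KO (edgeR adjusted p = 0.000679). Without soma 25 labelled KO, the highest of its group, the latter was 3.63.

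Olig2 was at 0, 3.69, 2.05, 1.997 and 3.43 CPM in WT somata 12, 14, 22, 25 and 26 and at 30.7, 17.9, 50.5, 43.3 and 16.8 CPM in WT growth cones 7 to 11. In libraries labelled KO the values were 2.72, 1.56, 0, 5.20 and 3.21 CPM in somata and 22.8, 25.6, 40.1, 43.4 and 27.9 CPM in growth cones. One soma library of each genotype held no Olig2 count, while every growth cone library held at least 492 counts. Olig2 rose by 3.68 ± 0.92 (SE) on the log2 scale in WT growth cones (edgeR adjusted p = 0.00690) and by 3.55 ± 0.98 in those labelled KO (edgeR adjusted p = 0.0136).

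Sox10 (chr15:79154908-79165240, minus strand), the HMG-box factor that switches on myelin genes, was almost confined to growth cone libraries. WT somata 12, 22 and 26 held no count of it, WT soma 25 held 1 count and WT soma 14 held 0.691 CPM. Among somata labelled KO only number 15 held any, at 0.766 CPM. WT growth cones 7 to 11 were at 12.4, 3.50, 20.9, 20.4 and 10.9 CPM, and those labelled KO at 2.27, 11.5, 15.6, 22.6 and 12.7 CPM. The lowest growth cone library exceeded the highest soma library in both genotypes. The fitted log2 differences were 6.37 ± 1.496 in WT (edgeR adjusted p = 0.00463) and 6.21 ± 1.77 in those labelled KO (edgeR adjusted p = 0.0157). They rested on the 2 soma libraries with more than 3 counts: without WT soma 14 the value was 9.9997, and without soma 15 labelled KO it was 11.62, values that the fit's small added count sets. Sox10 is also a gene of Schwann cells, the myelinating glia of peripheral nerve.

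Pdgfra (chr5:75152292-75198215, plus strand), the receptor through which PDGF-A drives precursor division, did not pass the test between compartments. In WT somata 12, 14, 22, 25 and 26 it was at 0.0604, 0.0288, 2.46, 11.8 and 4.22 CPM, and in WT growth cones 7 to 11 at 19.3, 19.5, 11.9, 32.5 and 4.94 CPM. Libraries labelled KO had it at 2.26, 3.02, 9.86, 2.33 and 5.56 CPM in somata and at 0.438, 10.01, 11.98, 18.4 and 6.42 CPM in growth cones. The groups overlapped in both genotypes, and soma libraries of WT spanned from near the limit of detection to the level of growth cones. The log2 difference was 2.07 ± 1.18 in WT (edgeR adjusted p = 0.182) and 0.87 ± 0.83 in those labelled KO (edgeR adjusted p = 0.440). Without WT soma 25 the WT value was 3.27 (adjusted p = 0.0663). With limma-voom the WT difference passed, at 4.09 with an adjusted p of 0.0252.

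Among the myelin genes, Mbp (chr18:82475146-82585637, plus strand, 16 annotated transcripts in GENCODE M21), which encodes the basic protein that compacts the myelin sheath, was the most abundant in growth cones and varied widely between them. WT somata 12, 14, 22, 25 and 26 held 50.7, 42.7, 44.4, 34.4 and 75.5 CPM, and somata labelled KO 14, 15, 22, 25 and 26 held 44.5, 58.1, 46.0, 53.7 and 57.2 CPM. In WT growth cones 7 to 11 the levels were 675, 612, 1904, 206 and 1223 CPM, and in those labelled KO 540, 1049, 1229, 570 and 345 CPM. Growth cone libraries of 1 genotype thus differed several-fold and still all lay above every soma library. The log2 difference between compartments was 4.08 ± 0.51 in WT (edgeR adjusted p = 6.28e-05) and 3.74 ± 0.33 in those labelled KO (edgeR adjusted p = 6.89e-06). The coefficient of variation of Mbp in growth cones was 71.1% in WT and 50.1% in those labelled KO, beside medians of 17.9% and 20.2% over genes within 1.5-fold of its level. In somata it was 31.6% and 12.2%, beside medians of 21.8% and 18.01%.

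Cnp (chr11:100574904-100591729, plus strand), the phosphodiesterase that is made early in differentiation, rose with Mbp. It was at 6.16, 14.5, 14.9, 28.4 and 17.5 CPM in WT somata 12, 14, 22, 25 and 26 and at 113, 146, 129, 70.5 and 121 CPM in WT growth cones 7 to 11. Under the KO label it was at 21.5, 21.01, 22.2, 26.7 and 35.0 CPM in somata and 43.0, 125, 149, 114 and 72.9 CPM in growth cones. No growth cone library was as low as a soma library. The log2 differences were 2.695 ± 0.38 (edgeR adjusted p = 0.000143) and 1.87 ± 0.31 (edgeR adjusted p = 0.000637). Of the exon bases of Cnp, 463 (12.7%) overlap exons of Dnajc7 on the opposite strand, a gene with 122495 counts over all libraries, and the use of strand in counting is not given in the sources used here.

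Mag (chr7:30899176-30914873, minus strand), a myelin lectin that faces the axon, was seen mainly in WT growth cones. Its levels were 9.47, 1.203, 11.1, 14.6 and 19.5 CPM in WT growth cones 7 to 11, against 0.199, 0.288, 0.541, 9.87 and 0 CPM in their counterparts labelled KO. Somata held 0 to 0.0293 CPM except number 25 of each genotype, with 1.97 CPM in WT and 0.870 CPM in that labelled KO. The WT difference of 4.60 ± 1.69 between compartments was called (edgeR adjusted p = 0.0440), although WT soma 25 overlapped WT growth cone 8. This call was lost without any 1 of WT growth cones 7, 9, 10 and 11 or WT somata 12, 14, 22 and 26 (values 4.27 to 4.68, adjusted p 0.0597 to 0.0883), and the value was 9.73 without WT soma 25. Mag did not pass the filter in the comparison of compartments labelled KO. Without a filter the difference there was 3.29, with an edgeR adjusted p of 0.238.

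Mog (chr17:37010743-37023398, minus strand), a surface protein of the outermost myelin layer and a late marker, stayed near 1 CPM or below in most libraries. It was at 0.264 to 1.09 CPM in WT somata and 0.591 to 1.45 CPM in those labelled KO. Values were 0.317, 0, 5.38, 0.0379 and 0.205 CPM in WT growth cones 7 to 11, against 0, 3.38, 1.48, 0.0371 and 0 CPM in their counterparts labelled KO. Only WT growth cone 9 and growth cone 8 labelled KO stood clearly above the somata, and these were among the libraries with most Mbp. The log2 difference was 0.85 ± 1.28 in WT (edgeR adjusted p = 0.627) and -0.01 ± 1.33 in those labelled KO (edgeR adjusted p = 0.996), and the WT value was -2.17 without growth cone 9.

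Ermn (chr2:58045113-58052864, minus strand) was the exception among the 9 genes. WT somata 12, 14, 22, 25 and 26 held 87.1, 118, 83.7, 68.2 and 71.1 CPM, while somata 14, 15, 22, 25 and 26 labelled KO held 20.1, 9.29, 10.6, 17.5 and 24.2 CPM. In WT growth cones 7 to 11 it stood at 6.19, 0.146, 0.106, 0.0379 and 0 CPM, with 0.120, 1.195, 1.12, 4.42 and 6.28 CPM in their counterparts labelled KO. Every WT soma was above every soma labelled KO, and all somata were above all growth cones. Ermn fell by 6.15 ± 1.34 (SE) on the log2 scale from WT somata to WT growth cones (edgeR adjusted p = 0.00289), a 70.8-fold difference that became -10.24 without WT growth cone 7, the 1 WT growth cone library above 0.146 CPM. Of the other WT growth cones 3 held 3 counts or fewer. In libraries labelled KO the difference was -2.76 ± 0.87 (edgeR adjusted p = 0.0250). Without growth cone 11 labelled KO it was -3.42. The call was lost without growth cone 8 or 9 labelled KO or without soma 14 or 26 labelled KO (values -2.71 to -2.58, adjusted p 0.0503 to 0.0585). Exons of Galnt5 on the opposite strand cover 237 exon bases (6.52%) of Ermn, and Galnt5 had 0 counts in all libraries.

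Start regions of genes that moved in opposite directions between compartments are shown so that they can be set side by side. They are RefSeq windows of 300 bases on GRCm38.p6, from 250 bases before to 50 bases after the annotated start, on the gene's strand. Ermn is at chr2:58052815-58053114 (minus strand), Olig2 at chr16:91225300-91225599 (plus strand) and Cnp at chr11:100574689-100574988 (plus strand). Capitals mark matches on either strand to the word ACAAAG that Sox factors can bind, to its close variant ACAATG, to a further Sox-type word, AACAAT, and to the octamer word ATGCAAAT of POU factors.
Ermn: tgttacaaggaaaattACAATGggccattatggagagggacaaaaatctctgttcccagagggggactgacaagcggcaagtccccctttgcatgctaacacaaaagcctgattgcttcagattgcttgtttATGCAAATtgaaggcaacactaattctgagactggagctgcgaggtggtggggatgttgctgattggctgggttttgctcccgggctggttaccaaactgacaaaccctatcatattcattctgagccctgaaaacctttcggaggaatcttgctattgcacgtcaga
Olig2: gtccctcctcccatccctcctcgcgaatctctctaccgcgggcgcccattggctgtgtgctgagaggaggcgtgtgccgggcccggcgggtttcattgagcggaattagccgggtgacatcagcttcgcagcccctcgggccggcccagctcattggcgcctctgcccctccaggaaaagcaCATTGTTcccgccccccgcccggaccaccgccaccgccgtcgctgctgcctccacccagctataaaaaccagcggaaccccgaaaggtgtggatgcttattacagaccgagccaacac
Cnp: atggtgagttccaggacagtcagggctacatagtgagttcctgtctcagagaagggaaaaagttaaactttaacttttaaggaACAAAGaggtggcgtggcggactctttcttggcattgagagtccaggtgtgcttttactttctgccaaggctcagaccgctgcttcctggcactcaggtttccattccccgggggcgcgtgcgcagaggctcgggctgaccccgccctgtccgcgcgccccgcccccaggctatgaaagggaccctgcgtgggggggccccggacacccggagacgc
The Ermn window held ACAATG at position -234 and the octamer at -118 relative to the start. In the Olig2 window ACAATG (from -68) and AACAAT (from -67) overlapped on the opposite strand, and the Cnp window held ACAAAG at -167. Of 32544 promoter windows of the same length, 18.7% held ACAAAG and 1.75% the octamer. The shares for ACAATG and for the word that overlaps it in Olig2 were 12.4% and 10.6%. The E-box word CANNTG, which basic helix-loop-helix factors can bind, was found in the Cnp window at -124, in neither of the other windows, and in 72.3% of all windows. These words were chosen after the sequences had been seen, and a match is a description of letters only. Windows were read for 6 of the 9 genes, not for Olig1, Sox10 or Mbp, and those of Pdgfra, Mag and Mog are not printed.

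Between genotypes, Ermn was the 1 of these genes that changed in somata. Its log2 difference, labelled KO minus WT, was -2.40 ± 0.27 (SE, edgeR adjusted p = 0.00253), a 5.27-fold lower level with no overlap of single libraries. This direction, like every one between the soma groups, follows the labels, to which Bcl11b ran opposite, and exchanged soma labels would turn it. It was the 1 gene called among the 7 that passed the filter, while 0.731% of all 14911 genes tested were called in this comparison (0.416% higher, 0.315% lower) and 3.15% had no overlap between the groups. Leaving out each library in turn gave -2.60 to -2.25, and the call was lost only when all 20 libraries shared 1 estimate of the spread (-2.39, adjusted p = 0.896).

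The other 6 genes tested in somata were not called. Olig1 differed by -0.13 ± 0.52, Olig2 by 0.17 ± 1.26 and Pdgfra by 0.30 ± 1.13 on the log2 scale (edgeR adjusted p = 0.994, 0.997 and 0.994). Mbp, with the smallest error, differed by 0.06 ± 0.20 (edgeR adjusted p = 0.993). Cnp averaged 16.3 ± 7.98 CPM (SD, n = 5) for WT and 25.3 ± 5.88 CPM for somata labelled KO, a difference of 0.62 ± 0.34 with overlapping libraries (edgeR adjusted p = 0.726). Mog differed by 0.59 ± 0.56 (edgeR adjusted p = 0.939), and Sox10 and Mag did not pass the filter.

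In growth cones no gene was called between genotypes. Of 15419 genes tested, 0 (0%) passed in edgeR, 329 had an unadjusted p under 0.05, limma-voom called 0 and DESeq2 called 11. Of the 8 genes of the lineage and of myelin tested, 0 were called by edgeR, limma-voom or DESeq2, and 1 had an unadjusted p under 0.05. That was Olig1, which averaged 145 ± 29.95 CPM (SD, n = 5) for WT against 103 ± 19.97 CPM for growth cones labelled KO, with a difference of -0.48 ± 0.20 (edgeR unadjusted p = 0.0357, adjusted p = 0.999). Mag had the largest estimate, -2.37 ± 1.44 (edgeR adjusted p = 0.999), from 11.2 ± 6.78 CPM in WT and 2.18 ± 4.30 CPM in those labelled KO, the latter resting on growth cone 10. Mbp differed by -0.30 ± 0.50, Cnp by -0.20 ± 0.31, Olig2 by 0.03 ± 0.39, Sox10 by -0.06 ± 0.68, Pdgfra by -0.90 ± 0.81 and Ermn by 1.00 ± 1.57. Leaving out 1 library moved Ermn to 5.11 (without WT growth cone 7) or 0.36 (without growth cone 11 labelled KO) and Mag to -5.39 (without growth cone 10 labelled KO), and none of these was called. Differences of the size of these errors were not detectable with 5 libraries a group.

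The genotype difference was compared between the compartments as an interaction over all 20 libraries. None of the 9 genes was called by edgeR, limma-voom or DESeq2, where edgeR called 7 of 17645 genes (0.0397%, with 0.0113% higher and 0.0283% lower). Ermn was the 1 of the 9 with an unadjusted p under 0.05. Its genotype difference was higher in growth cones than in somata by 3.37 ± 1.51 (edgeR unadjusted p = 0.0369, adjusted p = 0.671). Without WT growth cone 7 the value was 7.50 with an adjusted p of 0.00997, so that 1 library decided whether the difference passed.

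**Figure D2:**
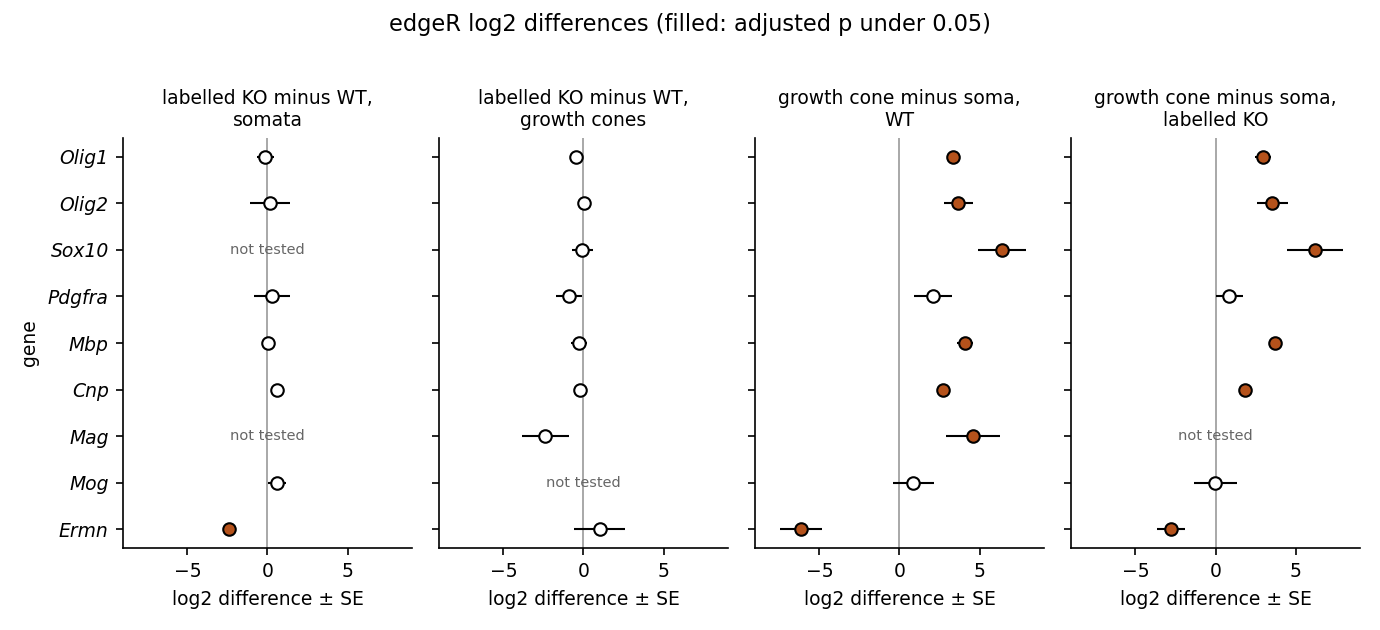
Log2 differences of the 9 genes with their SE in 4 comparisons of 5 against 5 libraries; filled points have an edgeR adjusted p under 0.05, and genes under the filter on low counts are written as not tested. The only filled point between genotypes is that of Ermn in somata at -2.40.

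The order of levels within a group is given per kilobase of exon. In WT somata Ermn led with 23.6 ± 5.45 CPM per kb (SD, n = 5), and its lowest library was above the highest library of the next gene, Olig1. Olig1, Mbp and Cnp followed at 6.08, 5.85 and 4.47 CPM per kb with overlapping libraries, and the other 5 genes were each below 1 CPM per kb. In somata labelled KO, Cnp (6.95), Mbp (6.13), Olig1 (5.64) and Ermn (4.50 CPM per kb) came first, each overlapping the next. In growth cones Mbp led with 109 ± 77.6 CPM per kb in WT and 88.1 ± 44.1 in those labelled KO. Olig1 followed with 67.0 ± 13.9 and 47.6 ± 9.24, overlapping Mbp in both groups. Cnp came next (31.9 and 27.7 CPM per kb), then Olig2 (12.6 in both groups) and Sox10 (4.46 and 4.24). Ermn was the last gene in WT growth cones, at 0.357 ± 0.753 CPM per kb. Of the summed CPM of the 9 genes, Mbp took 28.9% ± 8.40 (SD, n = 5) in WT somata and 46.0% ± 6.40 in those labelled KO. In growth cones its share was 66.7% ± 17.6 and 72.1% ± 7.94.

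Genes related to the 9 by role were read from 6 lists of 92 genes in all. In WT, 67 of them passed the filter, of which 30 were higher in growth cones, 11 were lower and 26 were not called. These are 30 and 11 of 67, beside the 23.1% and 19.7% of all genes tested that were called higher and lower. Under the KO label, 62 passed the filter, of which 26 were higher, 11 lower and 25 not called, beside 21.6% higher and 17% lower over all genes tested. Over the genes that passed the filter in each, their median log2 difference was 1.68 in WT and 1.82 in those labelled KO. Over all genes tested it was 0.07 and 0.11. Some list genes, such as Gpr17 and Nkx2-2 in WT, passed the filter only through growth cones and so could only come out higher. Of the 92 genes, 53 were tested between the soma groups and 75 between the growth cone groups. The counts between compartments here and for each list below, and the medians, are therefore descriptions and not a test of the lists.

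Transcription factors of the lineage were mostly higher in growth cones, with 7 higher and 1 lower of 10 tested in WT and 7 higher and 1 lower of 9 in those labelled KO. Tcf7l2, a Wnt effector of differentiating oligodendrocytes that is also made by thalamic and midbrain neurons, was at 0.972 ± 1.24 CPM (SD, n = 5) in WT somata and 112 ± 13.2 CPM in WT growth cones. Libraries labelled KO had it at 0.479 ± 0.570 and 118 ± 51.3 CPM. Id4 and Hes5, inhibitors of differentiation that are also made by astrocytes and radial glia, rose by 3.37 ± 0.31 and 6.17 ± 0.66 (SE) on the log2 scale in WT. Nkx2-2 was at 3.04 ± 1.49 CPM in WT growth cones and at 5 counts or fewer in every WT soma. Zeb2, which projection neurons express as well, was the 1 lower gene, by -2.03 ± 0.28 in WT and -2.13 ± 0.32 in those labelled KO. Myrf, the factor that drives myelin genes in differentiating cells, was not counted in any WT growth cone and was not tested between compartments. It was not absent under the KO label, where at least 1 growth cone library and at least 1 soma library held more than 3 counts.

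Of the genes of precursors, 5 were higher and 1 lower of 12 tested in WT, and 5 higher and 1 lower of 11 in those labelled KO. C1ql1, a secreted C1q-like protein of precursors, rose by 7.59 ± 1.02 in WT (8.92 without WT soma 26) and 6.07 ± 0.89 in those labelled KO. Gpr17, a receptor of committed precursors, had 3 counts or fewer in every WT soma and averaged 12.4 ± 13.5 CPM across WT growth cones. With the limit of 3 counts per library in place of the somata, this mean is at least 122-fold higher. Its SD exceeded the mean, and Gpr17 was not among the genes called in libraries labelled KO. Ptprz1, a receptor phosphatase shared by precursors and radial glia, rose by 1.09 ± 0.23 and 0.81 ± 0.24. Cspg4 (NG2), the defining surface proteoglycan of precursors, was at 0 to 4.55 CPM in somata and 0 to 13.2 CPM in growth cones and was not called. Vcan, an extracellular matrix proteoglycan, fell by 1.64 ± 0.49 in WT growth cones and by 2.05 ± 0.35 in those labelled KO.

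Of the genes of differentiating cells, 6 were higher and 2 lower of 10 tested in WT, and 5 higher and 2 lower of 8 in those labelled KO. Bcas1, a marker of newly formed oligodendrocytes, rose by 5.79 ± 1.64 in WT and 4.52 ± 1.27 in those labelled KO. The WT value was 4.55 without WT growth cone 11 and 7.94 without WT soma 26. Enpp2 (autotaxin) rose by 2.53 ± 0.88 and 3.46 ± 0.51. Fyn, a kinase that acts in myelin formation and in neurons, was lower in growth cones by -0.89 ± 0.12 and -0.65 ± 0.18, the latter not called with upper quartile scaling (-0.45, adjusted p = 0.0591). Among myelin and maturation genes, 6 were higher and 4 lower of 16 tested in WT, and 5 higher and 4 lower of 15 in those labelled KO. Mobp, another basic myelin protein, was at 1.07 ± 0.504 CPM in WT somata and 119 ± 98.4 CPM in WT growth cones. Among the lower genes, Gsn (gelsolin, an actin-severing protein of many cell types) fell by 2.89 ± 0.48 in WT and by 3.24 ± 0.53 in those labelled KO. Gpm6b, a membrane proteolipid of neurons and glia, fell by 0.83 ± 0.21 in growth cones labelled KO. It was called lower in WT as well, at -0.68 to -0.40 in 17 alternative fits, of which 4 lost the call. Opalin, a late marker, had 0 counts in all libraries.

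Of the growth factor and Notch signals, 5 were higher and 2 lower of 12 tested in WT, and 2 higher and 2 lower of 12 in those labelled KO. Pdgfa, the ligand of Pdgfra that neurons and astrocytes make, was at 30.9 ± 4.92 CPM in WT somata and 120 ± 17.0 CPM in WT growth cones, with a log2 difference of 1.81 ± 0.19. Lingo1, a neuronal inhibitor of differentiation, fell by 1.55 ± 0.15 in WT growth cones and by 1.76 ± 0.23 in those labelled KO. In the ERM family, to which ermin is related, 1 of 7 genes was higher and 1 lower in WT, and 2 were higher and 1 lower in those labelled KO. Over all genes tested, 23.1% were higher and 19.7% lower in WT, and 21.6% and 17% in libraries labelled KO. The ERM counts, and those of the signals under the KO label, are near these shares and are not a result about the lists. Slc9a3r1, an ERM-binding adaptor, rose by 3.84 ± 1.08 and 2.98 ± 0.57. Of the 3 ERM proteins themselves, none was called in WT, and Ezr (ezrin) rose by 2.07 ± 0.55 in growth cones labelled KO, which limma-voom did not call (1.65, adjusted p = 0.0757).

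**Figure D3:**
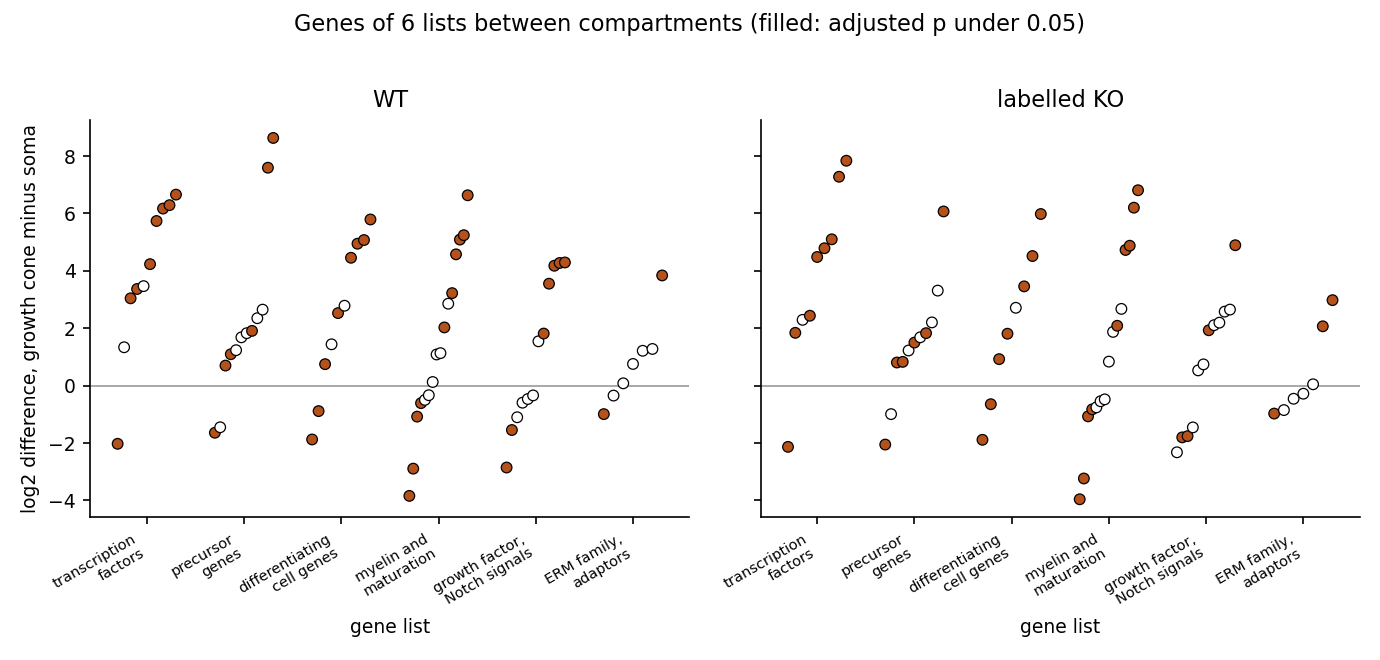
Log2 difference between growth cones and somata, WT on the left and labelled KO on the right, for each gene of the 6 lists that passed the filter; filled points have an edgeR adjusted p under 0.05. In WT 30 filled points lie above 0 and 11 below.

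Between genotypes, 2 of 53 genes of these lists that were tested in somata were called, beside 0.731% of all genes tested. Gsn averaged 24.2 ± 4.196 CPM (SD, n = 5) for WT against 77.7 ± 19.6 CPM for somata labelled KO, a log2 difference of 1.67 ± 0.21 (edgeR adjusted p = 0.00367). Fyn was at 562 ± 42.1 and 404 ± 6.98 CPM, a difference of -0.49 ± 0.07 (edgeR adjusted p = 0.00721). Neither overlapped between the groups, and each call was lost in 2 of 18 alternative fits. In growth cones 0 of 75 genes tested were called by edgeR, limma-voom or DESeq2, and 0 had an unadjusted p under 0.05.

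Markers of other cell types moved with the compartment in the same direction as most of the 9 genes. Summed over 10 genes, astrocyte and radial glia markers took 34.0 to 270 CPM in WT somata and 1955 to 2566 CPM in WT growth cones, with 9 of 10 genes higher. Under the KO label they took 128 to 344 and 2042 to 2652 CPM, with 7 of 10 genes higher. Fabp7, a fatty acid binding protein of radial glia, alone was at 49.5 ± 29.1 CPM in WT somata and 1296 ± 216 CPM in WT growth cones. Vessel and blood markers took 1.25 to 65.5 CPM in somata and 253 to 620 CPM in growth cones, led by the haemoglobin gene Hba-a1. In WT 4 of 7 tested were called higher, all of them haemoglobin genes, and no vessel gene was called. Under the KO label 5 of 9 were called higher, the same haemoglobin genes and the vessel gene Cdh5. Fibroblast and pericyte markers took 1.964 to 34.0 CPM in somata and 108 to 286 CPM in growth cones.

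Schwann cell markers summed to 0.453 to 17.2 CPM in somata and 79.6 to 277 CPM in growth cones. Of this list 3 of 11 genes were tested, and 2 were called as higher in growth cones in each genotype. Microglia markers overlapped between the compartments, with 30.7 to 176 CPM over all libraries. Markers of subcerebral projection neurons were lower in growth cones, at 821 to 1146 CPM against 2068 to 2726 CPM in somata. The 8 genes other than Ermn summed to 63.5 to 120 CPM in somata and 534 to 2269 CPM in growth cones, alongside these lists. The part of other cell types in the compartment difference was not tested.

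Between the soma groups, in which Ermn changed, the markers of other cell types gave no call. Tested were 9 of 10 astrocyte and radial glia, 8 of 10 microglia and 6 of 10 vessel and blood markers. So were 4 of 10 fibroblast and pericyte and 3 of 11 Schwann cell markers. Of these, 0 were called by edgeR, limma-voom or DESeq2, where edgeR called 0.731% of all genes tested. In edgeR 0 had an unadjusted p under 0.05. Their median log2 differences, labelled KO minus WT, were 0.39, 0.50, 0.65, 0.16 and -0.69 in that order. Whether cell content differed between the soma groups was not tested. Of the subcerebral projection neuron markers, Bcl11b, Etv1 and Diaph3 were higher and Crym and Pcp4 lower in somata labelled KO. Each of these calls was lost in 1 of 18 alternative fits, that of Bcl11b in 2. The 8 genes other than Ermn summed to 86.0 ± 20.2 CPM (SD, n = 5) for WT somata against 97.7 ± 15.01 CPM for somata labelled KO.

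**Figure D4:**
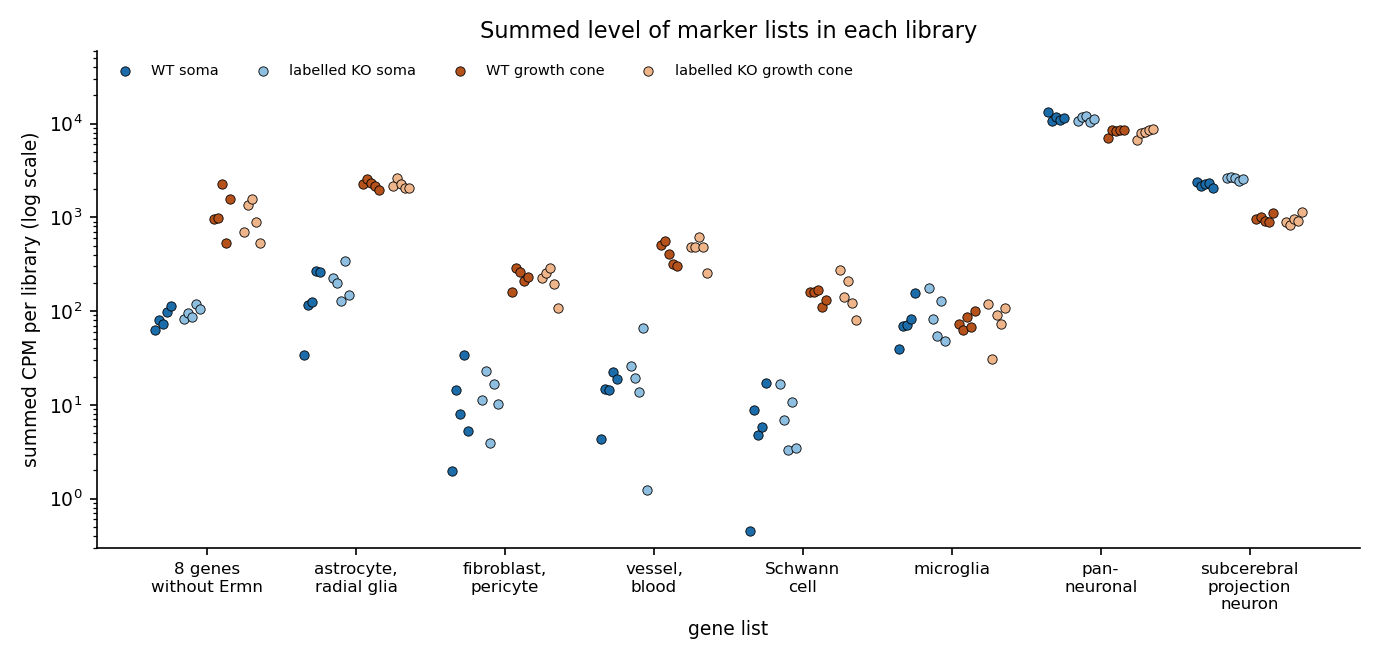
Summed CPM of the 8 genes other than Ermn and of 7 marker lists in each of the 20 libraries on a log axis; each point is a library. Glial, fibroblast, blood and Schwann cell lists lie higher in growth cone libraries, microglia markers overlap, and both neuronal lists lie lower.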

How the data were processed

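The deposited table holds whole-number counts of reads per gene for 20 SMART-seq v4 libraries, which the authors made with Trimmomatic 0.39, STAR 2.7.1a and featureCounts 1.5.0, per the submitters' processing notes. Those notes name GRCm39, but exon coordinates in the table matched GENCODE M21 on GRCm38 for 54435 of 55487 genes (98.1%), so coordinates are given on GRCm38. Strand use and the treatment of multimapping reads are not given in the sources used here. Amplified reads carry no molecular identifiers.

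Groups were taken from the sample titles. Per comparison, genes were filtered (filterByExpr, minimum count 10), scaled by TMM and tested with edgeR 4.0.16 (quasi-likelihood F test, Benjamini-Hochberg over all genes tested, threshold 0.05) in R 4.3.3. A gene is called under that threshold. The SE of a log2 difference was computed from the F statistic. Scripts were tested on simulated data. DESeq2 1.42.0, limma-voom (limma 3.58.1), other scalings, no filter, 1 fit over all 20 libraries, the experiment number as a block and leaving out each library were alternatives. All 169 genes of the lists were found, 1 of them by an older symbol. No replicates agreed within sampling noise (lowest chi-square per degree of freedom 52.7).

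The members and lists were chosen with earlier results of these data known. Named were the 9 genes, Bcl11b and the 3 genes most alike in pattern. From each list, those of lowest p among its called genes were named (at most 4 in each direction). Cspg4, Myrf and Opalin were named as defining markers, outside that rule and after their values were seen. Cdh5, the vessel gene called under the KO label, was named outside that rule as well. The number of the experiment was used as a name only: same-numbered libraries correlated in their deviations from the group mean by 0.0318 to 0.110 in growth cones and 0.0223 to 0.147 in somata, and only 1 of 5 and 2 of 4 pairs passed the 0.1 required of every pair. Some genes of the lists are not reported here by name.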

Additional observations from a re-analysis of the deposited data

Results flagged for a closer look

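Of 36 groups of 5 values (9 genes in 4 groups), 7 had 1 library far from the other 4 by Dixon's test. Chance gives about 1 in 20 only for normally distributed values. In all 7 groups the other libraries lay near 0 CPM, where that rate does not hold, so the 7 are not set against it. Sox10 stood at 0.691 CPM in WT soma 14 (others 0 to 0.0277 CPM) and at 0.766 CPM in soma 15 labelled KO (others 0). Mag stood at 1.97 CPM in WT soma 25 (others 0 to 0.0293 CPM), at 0.870 CPM in soma 25 labelled KO (others 0 to 0.0257 CPM), and at 9.87 CPM in growth cone 10 labelled KO (others 0 to 0.541 CPM). Mog stood at 5.38 CPM in WT growth cone 9 (others 0 to 0.317 CPM). Ermn stood at 6.19 CPM in WT growth cone 7 (others 0 to 0.146 CPM).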

How the results depend on the processing

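For the 9 genes, the count called between compartments was 6 to 8 in WT and 5 to 6 in libraries labelled KO under every alternative run. In somata, Ermn was called under all but the fit over all 20 libraries, where 0 of the 9 were called; with the replicate block it was -2.28 (adjusted p = 0.0457), while the calls of Bcl11b, Gsn and Fyn between somata were lost with it (adjusted p = 0.162, 0.0845 and 0.0690), as were those of Etv1, Crym and Pcp4 (0.0845, 0.152 and 0.0600). The 20-library fit also lost Bcl11b, Gsn, Fyn and Diaph3 (0.279, 0.305, 0.418 and 0.751). Between genotypes of growth cones 0 were called under every alternative run. In the interaction 0 were called except without WT growth cone 7, where 1 was.

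Over all genes, somata gave 109 calls between genotypes, 30 with all 20 libraries in 1 fit, 402 by DESeq2, 34 with the replicate block and 67 (without KO soma 22) to 107 with a library left out. Growth cones gave 0, and 7 and 11 with the 20-library fit and DESeq2. The interaction gave 7, 262 by DESeq2, 0 with the block and 5 to 12 with a library left out. Same-numbered libraries correlated best in 5 of 5 pairs in growth cones and 3 of 4 in somata, a hint from the data and not from the design.

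No reversed value was a call. Mog (labelled KO, growth cone minus soma) was 0.15 with library totals, 0.20 with upper quartile scaling and -1.29 to 0.29 with a library left out. Mog in WT was -1.48 by limma-voom and -2.17 to 1.201 with a library left out. By limma-voom, Olig2 was -0.21 between somata and 0.22 in the interaction, and Sox10 0.58 in the interaction. With the replicate block, Olig2 was -0.77 between somata, and the interaction was 0.14 for Olig1, 0.86 for Olig2 and 4.42 for Sox10. With a library left out, differences between somata ranged from -0.049 to 0.27 for Mbp, -0.80 to 0.11 for Olig1, -0.27 to 0.49 for Olig2 and -0.19 to 1.42 for Pdgfra. Between growth cones they ranged from -0.56 to 0.13 for Mbp, -0.13 to 0.25 for Olig2 and -0.35 to 0.20 for Sox10. In the interaction they ranged from -6.32 to 2.36 for Mag, -0.65 to 0.049 for Mbp, -2.21 to 2.10 for Mog, -0.60 to 0.30 for Olig1, -0.48 to 0.28 for Olig2 and -3.83 to 5.18 for Sox10. The cause was not tested. DESeq2 gave no adjusted p for Ermn between WT compartments or for Mog between somata and between WT compartments. Sox10, Mag, Mog and, in growth cones, Ermn held 3 counts or fewer in several libraries, which limits their estimates. Whether depth accounts for these low counts was not tested.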

Other observations

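The genes whose levels ran most alike were sought among 10955 genes in growth cones and 9814 in somata, as Pearson's r of log2(CPM + 1) over 10 libraries, which share group, depth and experiment number. They are the highest of many correlations and a description only. In growth cones the gene most like Mbp was Mobp, another basic myelin protein (r = 0.927), followed by Slc4a4 (0.902) and Lrfn1 (0.881). Sox10 ran most like Arl4c (0.956), Olig2 like Snupn (0.947), Olig1 like Ncor1 (0.929) and Cnp like Gadd45gip1 (0.950). In somata Ermn ran most like Ppfibp1 (0.9598), Pid1 (0.952) and Egln3 (0.949), over libraries in which Ermn itself separates the genotypes.

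Per kilobase, the ratio of Olig1 to Olig2 was 6.80 ± 4.35 (SD, n = 5) in WT growth cones and 3.94 ± 1.12 in those labelled KO. Without Mbp, the other 8 genes summed to 338 ± 30.2 CPM in WT growth cones and 264 ± 77.8 CPM in those labelled KO.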
